A study of Danio rerio with 6 samples.

Results

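Translation efficiency of 10 zebrafish genes for digestive enzymes of the exocrine pancreas was compared between mycn mutant embryos and wild-type embryos of the AB strain, both 72 h after fertilization. The genes were chosen by name, as the enzymes of pancreatic juice prss1, prss59.1, prss59.2, ctrb1, ctrl, ela2, ela2l, cpa1, cpa5 and cel.1, and all 10 were among the 21392 genes of the deposited table. Earlier results of these data were known when they were chosen. Counts of enzymes set beside the shares over all genes are therefore description, and not a test of the list. Translation efficiency relates the ribosome footprints of a gene, pieces of mRNA that a ribosome shields from RNase and that Ribo-seq counts, to the amount of its mRNA. It was given for 2 mycn mutant and 2 wild-type Ribo-seq libraries, called library 1 and library 2 of each genotype, while RNA-seq was done on 1 sample per genotype. Whole embryos were used, per the labels, and the mycn allele, the zygosity of the mutants and the number of embryos per sample were not stated in those labels. Nothing in the labels says whether the libraries of a genotype came from separate clutches, so the spread between them may be technical. With RNA-seq on 1 sample per genotype, that spread holds no variation between mRNA samples of the same genotype.

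Acinar cells of the exocrine pancreas make proteases as inactive zymogens, pack them into granules and release them into the gut, where trypsin activates itself and the other zymogens. Trypsins, chymotrypsins and elastases cut inside proteins after different kinds of residues, carboxypeptidases remove residues from the carboxyl end, and carboxyl ester lipase hydrolyses dietary esters with the help of bile salts. In zebrafish the acinar tissue grows around the principal islet, and these enzyme genes are standard markers of its differentiation. The libraries came from whole embryos. Translation efficiency is a ratio to the mRNA of the same gene, so it measures neither the number of acinar cells nor the RNA per acinar cell. Whether either of these differed between genotypes was not tested.

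Median translation efficiency over all genes was 0.752 and 0.736 in the mutant libraries and 0.746 and 0.734 in the wild-type libraries. Of all genes, 7.79% and 9.98% were listed at 0 in the mutant libraries and 5.86% and 8.15% in the wild-type libraries. A gene above 0 in all 4 libraries was tested, which held for 17601 genes and for 8 of the 10 enzymes. The other enzymes, ela2 and cpa1, were each at 0 in 1 mutant library. Neither footprint counts nor mRNA counts were analysed here. The reads behind a ratio are therefore of unknown number, and whether a ratio differed between genotypes through its footprints or through its mRNA cannot be told apart.

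Most of the enzymes had a higher translation efficiency in mycn mutants than in wild type. In 6 of the 8 tested enzymes, namely the trypsins prss1, prss59.1 and prss59.2, the chymotrypsins ctrb1 and ctrl, and the lipase cel.1, both mutant libraries stood above both wild-type libraries, an arrangement found in 23.1% of all tested genes. None of the 8 had both mutant libraries below both wild-type libraries, against 21.6% of all tested genes. The ratio of the mutant to the wild-type mean in these 6 ran from 1.45 for prss1 to 11.8 for prss59.1. The elastase ela2l and the carboxypeptidase cpa5 overlapped between genotypes. Since RNA-seq was done on 1 sample per genotype, a lack of overlap between libraries holds no repeat of the mRNA measurement. No enzyme passed the test over all genes, and no gene of the table did (0 of 17601 genes, 0.00%, limma, Benjamini-Hochberg adjusted p under 0.05). At an unadjusted p under 0.05 limma gave 2023 genes (11.5%), among them 5 of the 8 tested enzymes, prss59.1, prss59.2, ctrb1, ctrl and cel.1. All 5 were higher in mutants, as were 6.78% of tested genes at that unadjusted p. With 2 libraries against 2, an exact permutation test of a single gene cannot give a two-sided p below 0.333.

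**Figure D1:**
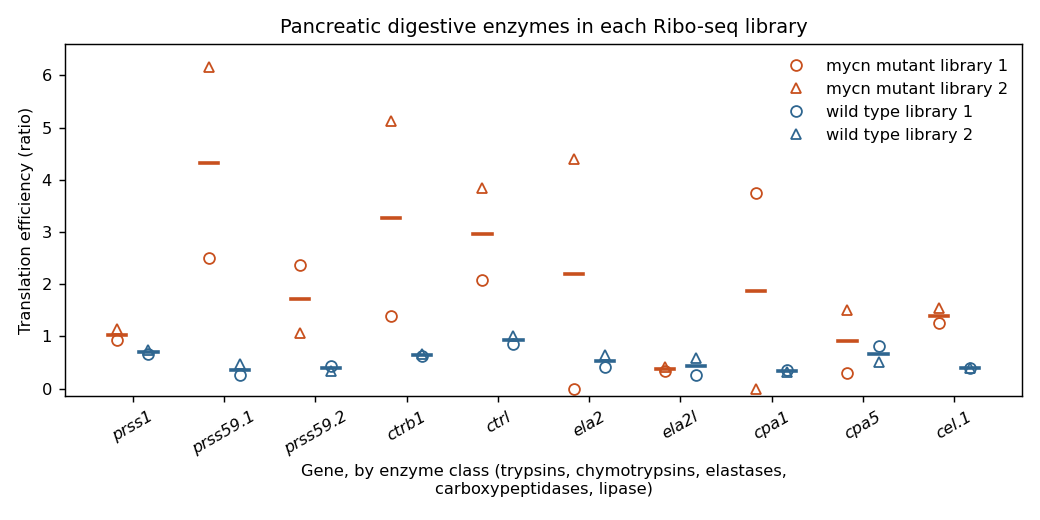
Translation efficiency (y axis, a ratio) of the 10 digestive enzyme genes (x axis) in each library, with mycn mutants in orange at the left and wild type in blue at the right of each gene. Circles are library 1, triangles library 2 and short bars the mean of 2 libraries; wild-type values lie between 0.252 and 1.00, whereas mutant values spread from 0 to 6.15.

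Trypsins cut after lysine and arginine, and prss1 encodes the classical pancreatic form. Prss1 was at 0.922 and 1.13 in the mutant libraries and at 0.672 and 0.743 in the wild-type libraries. Both mutant values were higher, by the smallest margin among the 6 enzymes without overlap, with a log2 fold of 0.48 (SE 0.209, adjusted p = 0.4996). The fold of prss1 was higher than that of 81.9% of tested genes.

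The trypsin-family genes prss59.1 and prss59.2 lie next to each other with no gene between them in RefSeq's annotation of the zebrafish assembly GRCz12tu, and the treatment of reads that match both copies was not stated. Prss59.1 was at 2.50 and 6.15 in the mutant libraries and at 0.252 and 0.479 in the wild-type libraries. Its log2 fold was 3.16 (SE 0.541, adjusted p = 0.285), the 21st highest of all 17601 tested genes. Even the lower mutant library stood several times above the higher wild-type library, although the mutant libraries themselves differed by a factor of 2.46. Prss59.2 was at 2.37 and 1.06 in the mutant libraries and at 0.435 and 0.342 in the wild-type libraries, a log2 fold of 1.80 (SE 0.432, adjusted p = 0.337). In the mutants the order of the libraries was opposite for these neighbours, since library 2 was the higher one for prss59.1 and the lower one for prss59.2.

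Chymotrypsins cut after bulky hydrophobic residues. Chymotrypsinogen B, encoded by ctrb1, was at 1.39 and 5.13 in the mutant libraries and at 0.629 and 0.669 in the wild-type libraries. The wild-type libraries agreed within a factor of 1.06 and the mutant libraries differed by a factor of 3.69, so the log2 fold of 1.90 (SE 0.660, adjusted p = 0.4196) depended on which mutant library was used. It was 0.99 without mutant library 2 and 2.80 without mutant library 1. The chymotrypsin-like protease ctrl was at 2.09 and 3.85 in the mutant libraries and at 0.863 and 1.00 in the wild-type libraries. Its groups did not overlap, and the log2 fold was 1.51 (SE 0.3596, adjusted p = 0.334).

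Elastases are named for their action on elastin. Ela2 was listed at 0 in mutant library 1 and was at 4.40 in mutant library 2, against 0.411 and 0.651 in the wild-type libraries. The mutant values thus lay on either side of both wild-type values, and ela2 was left out of the test of genes above 0 in all 4 libraries. In the alternative fit that kept genes at 0, its log2 fold was 0.11 (SE 2.13, adjusted p = 0.991, limma). Without mutant library 1, which leaves only the mutant library where ela2 was above 0, its log2 fold was 2.86. Ela2l, which lies beside ela2 and for which RefSeq lists ctrc as a synonym, was at 0.329 and 0.405 in the mutant libraries and at 0.261 and 0.590 in the wild-type libraries. Both mutant values fell between the wild-type values, with a log2 fold of -0.099 (SE 0.389, adjusted p = 0.9404), and the sign turned without mutant library 1 (0.018) and without wild-type library 2 (0.37). Ela2l was the only tested enzyme of the 8 with a fold below 0.

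Carboxypeptidases of the A type release aromatic and aliphatic residues from the carboxyl end of peptides. Cpa1 was at 3.76 in mutant library 1 and was listed at 0 in mutant library 2, against 0.348 and 0.315 in the wild-type libraries. This was the mirror image of ela2, with the other mutant library at 0. In the fit that kept genes at 0, the log2 fold of cpa1 was 0.53 (SE 2.03, adjusted p = 0.946, limma). Without mutant library 2, which leaves only the mutant library where cpa1 was above 0, its log2 fold was 3.16. Its neighbour cpa5 was at 0.305 and 1.501 in the mutant libraries and at 0.817 and 0.506 in the wild-type libraries. Cpa5 had the widest gap between mutant libraries among the enzymes above 0 in both, a factor of 4.92, and the mutant values enclosed the wild-type ones. The log2 fold of 0.11 (SE 0.745, adjusted p = 0.969) turned to -0.88 without mutant library 2 and to -0.19 without wild-type library 2.

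Carboxyl ester lipase, encoded by cel.1, had the closest pair of wild-type libraries among the enzymes. It was at 1.25 and 1.54 in the mutant libraries and at 0.392 and 0.387 in the wild-type libraries. Both mutant values were more than 3 times the wild-type values, and the log2 fold of 1.604 (SE 0.204, adjusted p = 0.222) had the smallest adjusted p of the 8 tested enzymes. Its neighbour cel.2, listed next to it in RefSeq, was not analysed here.

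**Figure D2:**
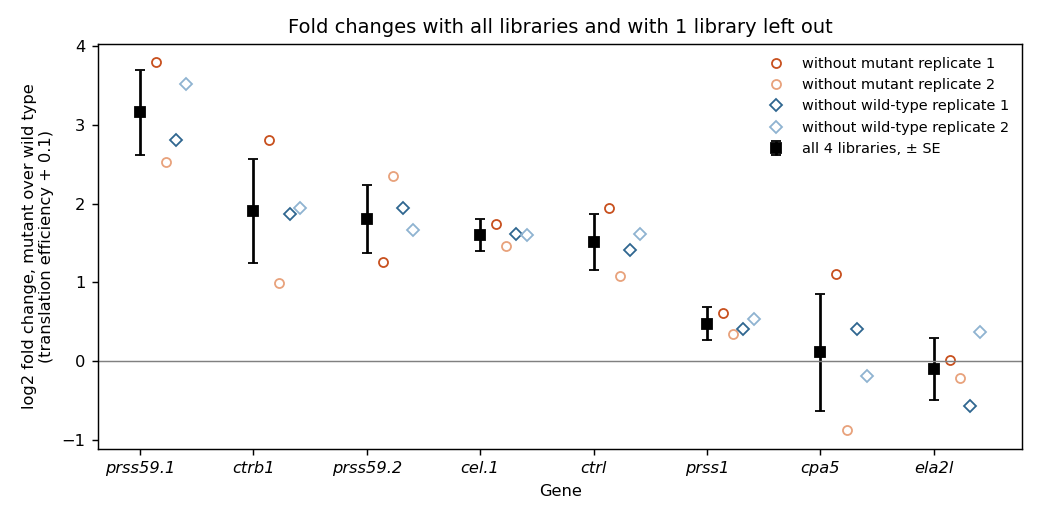
Log2 fold change of translation efficiency plus 0.1, mutant over wild type (y axis), for the 8 enzymes above 0 in all libraries (x axis). Black squares with bars are the fit of all 4 libraries with its SE, and open symbols the fits without 1 library; those of cel.1 run from 1.47 to 1.74, whereas those of cpa5 run from -0.88 to 1.103.

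The order of the enzymes differed between genotypes. In mutants prss59.1 had the highest mean (4.33 ± 2.58, SD, n = 2), followed by ctrb1 (3.26 ± 2.64) and ctrl (2.97 ± 1.24), and ela2l had the lowest (0.367 ± 0.0533). Among neighbours in the mutant order, cel.1 and prss1 were the only pair whose libraries did not overlap. In wild type ctrl was highest (0.933 ± 0.0995) and its libraries did not overlap those of the next enzyme, prss1 (0.708 ± 0.0502). All later neighbours in the wild-type order overlapped, down to prss59.1 (0.366 ± 0.160) and cpa1 (0.331 ± 0.0234). By these means prss59.1 was the highest enzyme in mutants and the second lowest in wild type, although in mutant library 1 cpa1 (3.76) stood above it (2.50). These levels derive from FPKM values with denominator, filters and offsets not stated. How far they can be compared between genes was not tested.

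Set against all genes of the same library, the enzymes stood high in mutants and low in wild type. Of the 10 enzymes, 7 and 8 were above the median of all genes in mutant libraries 1 and 2, against 2 and 2 in wild-type libraries 1 and 2. The median over the 10 enzymes was 1.32 and 1.52 in the mutant libraries and 0.423 and 0.548 in the wild-type libraries. Ctrl was the only enzyme above the median in all 4 libraries, and ela2l the only one below it in all 4. Of the 8 tested enzymes 7 had a log2 fold above 0, against 51.3% of tested genes. Their median log2 fold was 1.56, against 0.013 over all tested genes. A log2 fold of at least 1 was found in 5 of the 8, against 5.86% of tested genes.

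For most of the enzymes the mutant libraries differed from each other more than the wild-type libraries did. For 7 of the 8 tested enzymes the ratio of the higher to the lower library was larger in mutants than in wild type; the exception was ela2l. Mutant library 2 was the higher one for 8 of the 10 enzymes and the lower one for prss59.2 and cpa1. The same counts were not made over all genes, so neither is shown to be particular to the enzymes. The median log2 fold of the 8 tested enzymes was 1.04 without mutant library 2 and 1.499 without mutant library 1.

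Values held in common with other genes were more frequent among the enzymes in mutants. A ratio of small whole numbers can take few values, so that many genes of a library then hold one and the same value (compared here to 9 significant digits). Of the 18 enzyme values above 0 in the mutant libraries, 17 were shared with at least 1 other gene, and the median number of such genes was 34.5. Of the 20 values in the wild-type libraries, 12 were shared, with a median of 2.5 other genes. Over all genes the share of repeated values was similar in both genotypes, at 67.1% and 67.0% in the mutant libraries and 64.7% and 66.9% in the wild-type libraries. The values of cel.1 were shared with 96 and 105 other genes in the mutant libraries and with 2 and 0 in the wild-type libraries. Those of ctrb1 were shared with 119 and 95 other genes in the mutant libraries and with none in the wild-type libraries. The same ratio between mutant libraries, 1.229, was found in prss1, ela2l and cel.1. It was the most common one of the whole table, held by 1561 of 18444 genes above 0 in both. In the other tested enzymes the higher over the lower mutant library gave 1.8435 (ctrl), 2.238 (prss59.2), 2.458 (prss59.1), 3.687 (ctrb1) and 4.916 (cpa5). Multiples of 1.229 were not searched, so these enzymes are not shown to lie off the same scale. No enzyme held exactly the most common ratio between the wild-type libraries, 1.357. Multiples of 1.357 were not searched either, so the wild-type values are not shown to lie off a coarse scale. The part of this coarse scale in the higher mutant values was not tested.

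**Figure D3:**
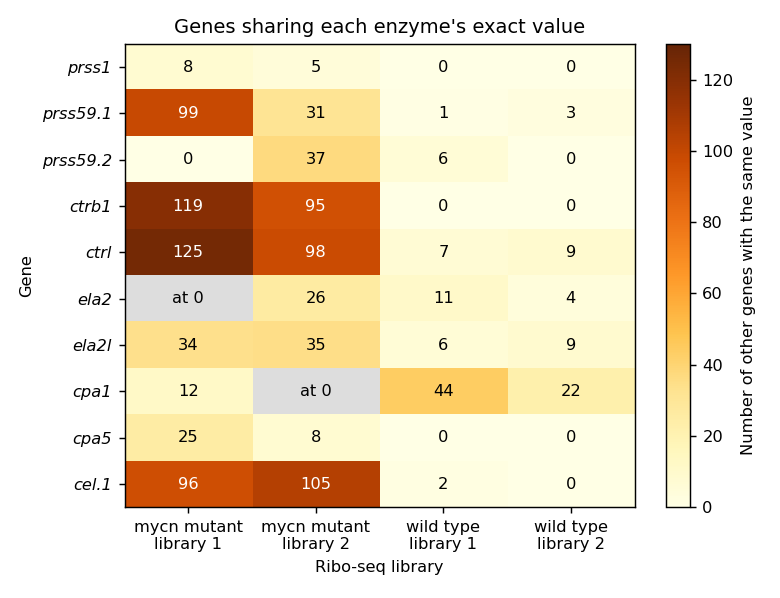
Number of other genes that have exactly the same translation efficiency as each enzyme (rows) in each library (columns, mycn mutants left of wild type); darker cells are values shared by more genes and grey cells are values listed at 0. The largest numbers, 119 and 125, are those of ctrb1 and ctrl in mutant library 1, and the largest number in wild type is 44, for cpa1.

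Other digestive enzymes of the pancreas were described from a list of 34 symbols, of which 12 were in the table and 4 were above 0 in all libraries. Procarboxypeptidase B, encoded by cpb1, was at 6.26 and 3.37 in the mutant libraries and at 2.19 and 2.08 in the wild-type libraries. Both mutant values were higher, with a log2 fold of 1.07 (SE 0.363, adjusted p = 0.413). The remaining 3 tested genes, prss60.2, prss60.3 and cpb2, overlapped between genotypes, and the median over the 4 was 0.19. Cpb2 encodes carboxypeptidase B2, a plasma enzyme and not a digestive one, so this median is not of digestive enzymes alone. The other 8 of the 12 genes were at 0 in at least 1 library. Among these the elastase-family genes ela3l and cela1.6 and the carboxypeptidase cpa4 were above both wild-type values in mutant library 1 and at 0 in mutant library 2. Cela1.4 was at 0 in both mutant libraries, against 0.314 and 0.213 in the wild-type libraries. Over the 22 genes together, cpb2 included, 4 and 9 were at 0 in the mutant libraries and 3 and 2 in the wild-type libraries.

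Genes of pancreatic secretion and of pancreatic transcriptional control were set beside the enzymes. Of 7 genes for granule, secretory and ion transport proteins, 3 had both mutant libraries above both wild-type libraries, none the reverse, and the median log2 fold was 0.19. The shares over all tested genes were 23.1% and 21.6%. Pdia2, a protein disulfide isomerase of the pancreas, was at 1.19 and 2.20 in the mutant libraries and at 0.545 and 0.555 in the wild-type libraries (log2 fold 1.41, SE 0.343, adjusted p = 0.338). Cftr, the chloride channel of pancreatic ducts and other epithelia, was at 1.09 and 2.01 in the mutant libraries and at 0.599 and 0.6096 in the wild-type libraries (log2 fold 1.17, SE 0.341, adjusted p = 0.374). The third was the bicarbonate cotransporter slc4a4b, with a log2 fold of 0.17, which like cftr encodes an ion transport protein and not a granule protein. Spink4, rab3da, rab27b and vamp8 overlapped between genotypes. Of 9 tested transcription factor genes 1 was higher without overlap, hnf1ba, and 1 lower, prox1a, both below the shares over all tested genes. The median log2 fold over the 9 was -0.094. This list holds pancreatic factors that are not confined to acinar cells, and mnx1 (log2 fold -0.22) was also counted among the endocrine markers. Ptf1a, the factor that specifies acinar cells, was at 0.368 and 0.453 in the mutant libraries and at 0.295 and 0 in the wild-type libraries, and was not tested. No gene of either list passed the test over all genes.

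Markers of neighbouring organs had smaller median folds. Of 25 tested enterocyte markers, 16 had both mutant libraries above both wild-type libraries and 5 had them below, with a median log2 fold of 0.41. The corresponding numbers were 10 and 5 of 18 hepatocyte markers (median 0.34) and 1 and 1 of 12 endocrine pancreas markers (median -0.054). For the 18 genes of the translocon and of protein targeting to the endoplasmic reticulum, through which the enzymes enter the secretory pathway, they were 5 and 7 (median 0.024). Over all tested genes these shares were 23.1% above and 21.6% below. The shares of enterocyte and hepatocyte markers with both mutant libraries above, 64.0% and 55.6%, exceeded 23.1%, whereas that of the translocon list, 27.8%, lay near it. Summed over all genes of the table, translation efficiency was 67075 and 66229 in the mutant libraries and 52171 and 51953 in the wild-type libraries. The summed translation efficiency of the 29 enterocyte markers in the table was 88.4 and 88.2 in the mutant libraries and 55.4 and 78.3 in the wild-type libraries. That of the 21 hepatocyte markers was 47.5 and 37.8 against 21.0 and 29.5, and that of the 13 endocrine markers 10.5 and 11.1 against 12.4 and 14.3. A large part of the mutant hepatocyte sums came from ahsg2, at 25.04 and 15.39 in the mutant libraries and 1.947 and 5.284 in wild type. Its mutant values were shared with 52 and 106 other genes. The enterocyte sums of mutant libraries 1 and 2 held lct at 12.52 and mep1a.2 at 7.693, each at 0 in the other mutant library. Sums without these genes were not computed. Single genes went both ways, with 5 endocrine folds above 0 and 7 below, and 13 hepatocyte folds above and 5 below. The glucagon gene gcga had its mutant values, 0.358 and 1.76, below its wild-type values, 2.92 and 5.61. Scg3 was higher in mutants without overlap (log2 fold 0.35), as were ahsg2 (2.57) and apom (0.75), whereas cfb was lower (-0.72). The somatostatin-family gene sst2 and the hepatocyte gene ttr, for transthyretin, were listed at 0 in both mutant libraries and above 0 in both wild-type libraries. Those wild-type values were shared with 92 and 96 other genes for sst2 and with 87 and 19 for ttr. Whether the abundance of any of these cell types differed between genotypes was not tested.

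**Figure D4:**
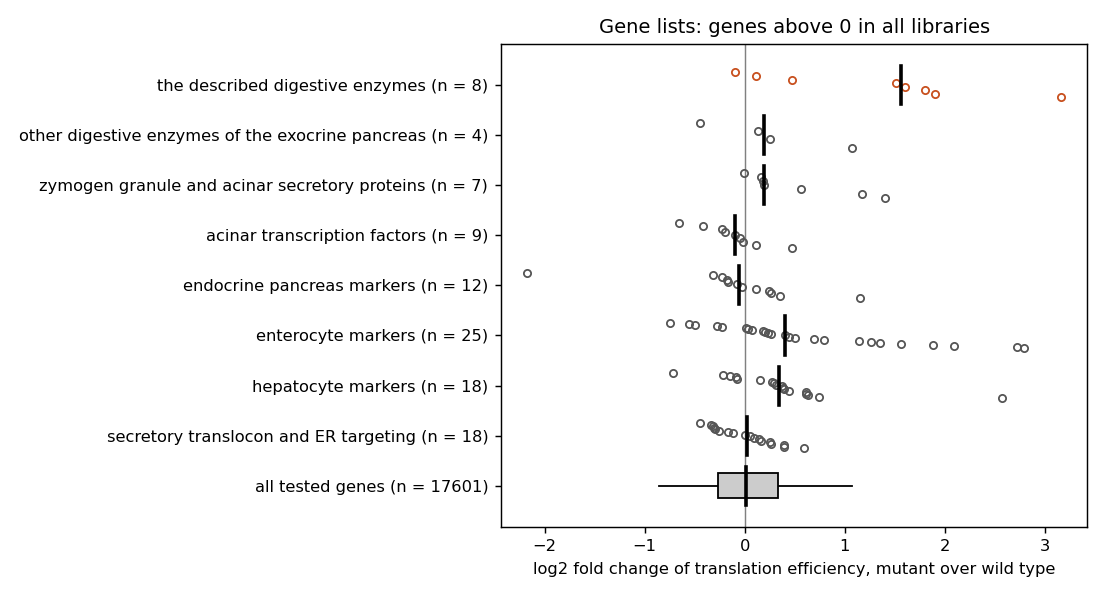
Log2 fold change of translation efficiency, mutant over wild type (x axis), of every gene above 0 in all libraries in the digestive enzymes and 7 other lists (rows), with the median of each list as a vertical bar. The bottom row gives all 17601 tested genes as a box from the 25th to the 75th percentile with a line from the 5th to the 95th; the median of the digestive enzymes is 1.56 and those of the other lists run from -0.094 to 0.41.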

How the data were processed

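The authors deposited 1 table of ratios, the translation efficiency of each gene in each of 4 Ribo-seq libraries. Per the file headers the values derive from FPKM. The RNA-seq sample used as denominator, filters and offsets were not stated. Since RNA-seq was done on 1 sample per genotype, no SE, SD or adjusted p given here covers variation between mRNA samples. STAR, featureCounts, limma and the build GRCz11 are named, without roles or versions, per the submitters' processing notes. All columns were matched to samples by title.

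Genes above 0 in all 4 libraries were fitted together with limma (version 3.58.1, R 4.3.3) on log2(value + 0.1), mutant over wild type, two-sided, with an empirical Bayes trend, 2 residual degrees of freedom and Benjamini-Hochberg adjustment over all 17601 genes. Fold changes on this scale understate those of low ratios. The steps were tested on simulated data with normal noise, which lack the repeated values of these ratios. That simulation does not show how the fit behaves on such values. The enzymes and the other lists were chosen with earlier results of these data known, so lists are described by counts and medians, with no test. The genes named from other lists were taken from the 3 with the smallest unadjusted p in each. Prss60.3, slc4a4b, spink4, rab27b, vamp8, prox1a and genes at 0 were added after their values were seen. All 10 enzymes were matched in RefSeq (9 by symbol, 1 by synonym), whose assembly, GRCz12tu, is not the authors' build and served for names and gene order only. Same-numbered libraries did not deviate together from their genotype means (r = 0.0097 over 17601 genes, which are not independent replicates), so no replicate block was used. Alternatives were other pseudocounts (0.01 and 1), filters, normalizations, no trend, a replicate block, each library left out, and genes without repeated values.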

Additional observations from a re-analysis of the deposited data

How the results depend on the processing

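No enzyme passed the threshold in any alternative, and 6 of the 8 tested enzymes had a fold above 0 in all 12 alternatives that include them; cpa5 and ela2l changed sign when single libraries were left out (from -0.88 to 1.103 for cpa5, with -0.19 without wild-type replicate 2, and from -0.57 to 0.37 for ela2l, with 0.018 without mutant replicate 1). The median log2 fold of the tested enzymes was 1.70 with a pseudocount of 0.01, 0.85 with a pseudocount of 1 and 1.02 when enzymes at 0 were kept, and ran from 1.09 to 1.74 when 1 library was left out. Both ends are medians over 9 enzymes, since cpa1 enters without mutant replicate 2 (1.09) and ela2 without mutant replicate 1 (1.74); over the same 8 enzymes these were 1.04 and 1.499. With all libraries, 6 of 8 enzymes (6 of 10 with those at 0 kept) were higher in both mutant libraries than in both wild-type libraries in each alternative, against 20.5% to 23.1% of the genes fitted. Only quantile normalization and median centring could alter this order. The other fits of all libraries counted it on the deposited values, so their agreement is no check of it. With 1 library left out 6 to 8 of 8 or 9 enzymes were higher in every remaining mutant library, against 36.6% to 38.4% of the genes. The counts over 9 enzymes were 8 without mutant replicate 1, with ela2 included, and 7 without mutant replicate 2, with cpa1 included. Each of these genes enters only because its mutant library at 0 was dropped, so its place among the higher ones is no support. Genes called over the whole table numbered 0, but 6 with a pseudocount of 1, 177 when genes at 0 were kept and 36 among genes without repeated values, a fit that holds none of the enzymes. With the replicate block 0 genes were called and the median was 1.56. The labels share a number but do not say that it marks a pairing. A block balanced over genotypes cannot change a fold, nor can the filters or the omission of the trend. The cause of these differences was not tested. The depth behind the ratios is unknown and limits every value, and no group was large enough for an outlier test.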

Other observations

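Within a mutant library some of the enzymes' values stood in simple proportions to each other. Taking cel.1 as the unit, prss59.1 was at 2.00, cpa1 at 3.00 and ctrl at 1.67 in mutant library 1. In mutant library 2 prss59.1 was at 4.00, ctrl at 2.50, ctrb1 at 3.33 and ela2 at 2.86. Prss59.2, at 1.897 and 0.6897 of cel.1 in mutant libraries 1 and 2, and cpa5, at 0.244 and 0.976, were in no ratio of whole numbers up to 20. Ratios of larger whole numbers were not searched, so this does not place their values off the coarse scale. Counted over all pairs of enzymes above 0, a ratio of whole numbers up to 20 (within a relative tolerance of 1e-06) was found in 14 of 36 pairs in each mutant library, against 3 and 2 of 45 pairs in the wild-type libraries. Larger whole numbers were not searched in wild type either.

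The 5 genes whose pattern over the 4 libraries lay nearest to the mean pattern of the 8 tested enzymes were crcp, PDE3B, pank2, si:ch73-299h12.3 and ext1c. Likeness was the Euclidean distance of log2 values after subtraction of each gene's mean, and it was 0.119 to 0.149 for these genes, against 0.233 for ctrl, the nearest enzyme, and 1.94 for prss59.1, the farthest. In all, 16 genes outside the list lay nearer than ctrl. Crcp was at 1.56 and 2.40 in the mutant libraries and at 0.708 and 0.7205 in the wild-type libraries.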
